A study of Mus musculus with 2 samples.

Results

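The inhibitor of DNA binding genes Id1, Id2, Id3 and Id4 and the transcription factor gene Atoh8 were followed in primary osteoblasts of wild-type and Slc39a13-KO mice. They were chosen by gene symbol, as a family of readouts of BMP signaling, with earlier results of these data known. All probe sets that the platform annotation gives to exactly 1 of these 5 gene symbols were used. These are 9 probe sets for 5 of the 18194 genes on the array. RefSeq places Id1 on chromosome 2, where Slc39a13 also lies, Id2 on chromosome 12, Id3 on chromosome 4, Id4 on chromosome 13 and Atoh8 on chromosome 6. Each genotype was represented by 1 array, so a difference between genotypes, between cultures and between arrays cannot be told apart, and no p-value was computed.

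Slc39a13, also known as ZIP13, moves zinc out of the Golgi, and in the Slc39a13-KO line a neomycin cassette replaced part of the gene in every cell of the animal. The control was the wild-type allele. Cells of both genotypes came from the skull vault of newborn mice, were freed by collagenase and dispase, and were grown in medium with fetal calf serum; digestion fractions 3 to 5 were kept. The labels name no BMP treatment for either array. The sources used here do not state the strain, sex or number of pups behind each arrayed culture. The paper names an embryonic stem cell line for the targeting and a mouse strain for its RT-PCR RNA.

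BMP ligands bind paired serine/threonine kinase receptors, which phosphorylate Smad1 and Smad5. These join Smad4, enter the nucleus and switch on target genes, and Id1, Id2 and Id3 are among the targets that respond most directly in bone and cartilage cells. Id proteins carry a helix-loop-helix region but no basic region, so they pair with E proteins and keep these from binding DNA. Id proteins in this way hold back differentiation driven by bHLH factors and favour proliferation. Id4 has the same domain but is often expressed in other cells and at other stages than Id1 to Id3. Atoh8 is a bHLH factor of the atonal family which does have a basic region and which BMP signaling also induces in several cell types.

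Id1, Id2 and Atoh8 had higher signals in the Slc39a13-KO array, Id4 had a lower signal, and Id3 was higher by slightly less than the 2-fold that the study used as its threshold. A gene was called where the mean of its measured probe sets differed by at least 2-fold and all of them pointed the same way. By this rule 3 of the 5 genes were called higher and 1 lower. Over all 12269 measured genes, 13.9% were called in either direction, 8.01% higher and 5.93% lower.

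Id1 had a MAS5 signal of 1555 in wild-type cells and of 4943 in Slc39a13-KO cells, a log2 ratio of 1.67. This 3.18-fold difference rests on 1 probe set, 1425895_a_at, whose suffix marks a probe set shared by several transcripts of the same gene. Id3, which is often induced together with Id1, gave 6617 in wild-type cells and 12701 in Slc39a13-KO cells. Its log2 ratio of 0.94, a 1.92-fold difference, also came from 1 probe set. Atoh8 was read by 1 probe set, at 478 for wild-type and 1585 for Slc39a13-KO. Its log2 ratio of 1.73 was the highest of the 5 genes and corresponds to 3.32-fold. For these 3 genes no second probe set exists to show how far the ratio varies within a gene. Over the 5700 genes read by several measured probe sets, the within-gene SD of the log2 ratio was 0.34 at the median and 0.75 at the 90th percentile. This is a spread between probe sets on the same arrays, and it does not measure variation between cultures or repeat arrays.

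**Figure D1:**
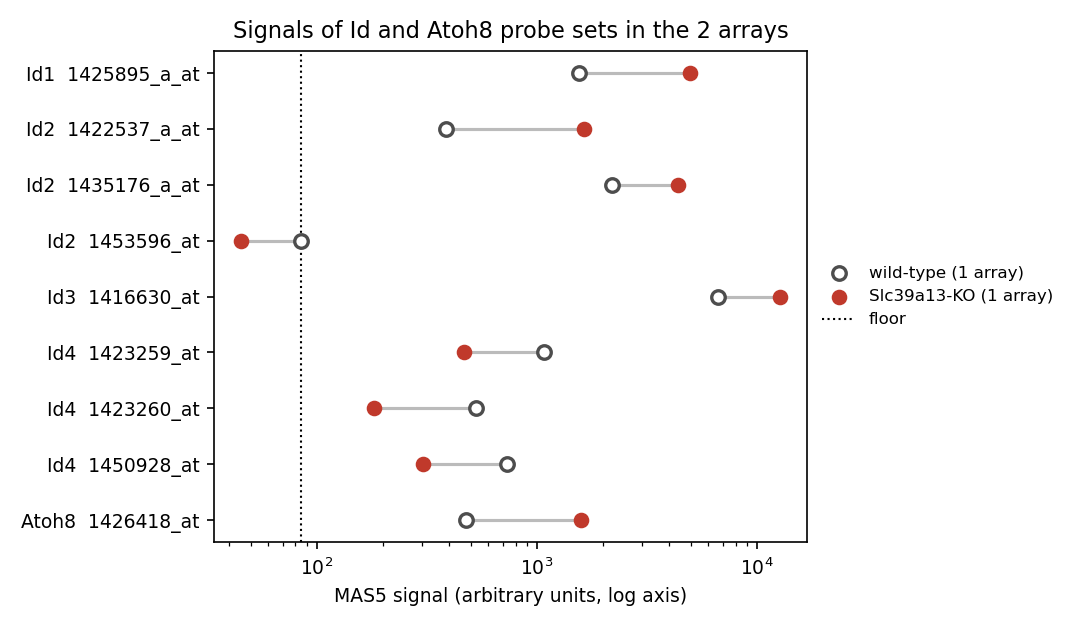
MAS5 signal (horizontal, log axis) of the 9 probe sets of Id1, Id2, Id3, Id4 and Atoh8, with an open circle for the wild-type array, a red circle for the Slc39a13-KO array and a dotted line for the floor of 85.1. Red circles lie to the right for Id1, Id3, Atoh8 and the brighter pair of Id2 probe sets, and to the left for all 3 Id4 probe sets and for the Id2 probe set at the floor.

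Id2 was read by 3 probe sets that differed among themselves. The brightest, 1435176_a_at, gave 2183 for wild-type and 4354 for Slc39a13-KO, which is a log2 ratio of 1.00. The next, 1422537_a_at, had 386 and 1634, a log2 ratio of 2.08. Both were thus higher in Slc39a13-KO, but one by just under 2-fold (1.99-fold) and the other by 4.23-fold. The third, 1453596_at, read 85.0 for wild-type and 45.3 for Slc39a13-KO, and its wild-type value lay just under the floor of 85.1 below which signals were not used. Id2 was therefore called from the first pair, whose mean was 1.54 on the log2 scale (SD 0.77, n = 2 probe sets, 2.90-fold). With a floor at the 30th percentile the third probe set entered with the opposite sign, the mean was 0.72 and Id2 was no longer called. The direction of Id2 was carried by its brighter probe sets, whose ratios differed more (SD 0.77) than those of Id4 (SD 0.17). For Id1, Id3 and Atoh8, with 1 probe set each, no such spread can be had.

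Id4 was read by 3 probe sets, and all were lower in the Slc39a13-KO array. The signals in wild-type and Slc39a13-KO were 1079 and 464 for 1423259_at. They were 730.2 and 304 for 1450928_at, and 526 and 181 for 1423260_at. The probe sets differed in brightness, but their log2 ratios lay close together, from -1.54 to -1.22. The mean was -1.34 (SD 0.17 between 3 probe sets), a 2.53-fold difference, and this spread is below the median of 0.34 given above. All 3 are annotated with the same source transcript, so they are repeated readings of the same RNA on the same arrays and not independent samples. Between Id1 and Id4 the log2 ratios differed by 3.01.

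**Figure D2:**
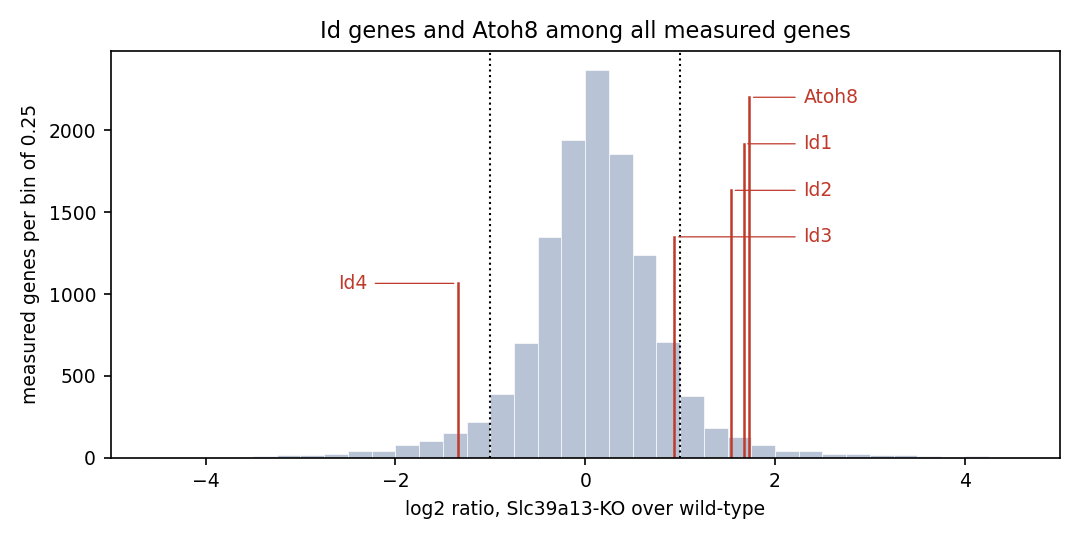
Number of measured genes (vertical) per bin of log2 ratio of Slc39a13-KO over wild-type (horizontal), with dotted lines at 2-fold and red lines, drawn at staggered heights for legibility, at the ratios of Id1, Id2, Id3, Id4 and Atoh8. The lines of Id1, Id2, Id3 and Atoh8 lie on the right flank of the distribution, Id3 just inside the 2-fold line, and Id4 at -1.34 lies on the left flank.

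Among all measured genes, 2.49% had a log2 ratio as high as Atoh8 or higher, 2.70% as high as Id1, 3.29% as high as Id2 and 9.01% as high as Id3. For Id4, 3.68% of genes were as low or lower. The 5 genes thus stood on the flanks of the distribution and not at its ends. Slc39a13, the targeted gene, had the rank of 21 from the lowest, with signals of 1309 and 90.4, so it was low in the array labelled Slc39a13-KO. The values of both arrays had the same 2% trimmed mean of 500.003, and 48.2% of probe sets in wild-type and 51.8% in Slc39a13-KO lay above the floor. Poly-A control RNAs were lower in Slc39a13-KO for 24 of 24 probe sets (median log2 ratio -1.02). These probe sets read the RNAs dap, lys, phe and thr repeatedly on the same arrays, so they are not independent controls.

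The directions of all 5 genes were the same under every scaling, floor and probe set choice that gave a value. Taken against the median of all genes in the same setting, the log2 ratio of Id1 ran from 1.51 to 1.75, that of Atoh8 from 1.57 to 1.81 and that of Id3 from 0.78 to 1.07. That of Id4 ran from -1.50 to -1.10 and that of Id2, which depends on the weak probe set, from 0.56 to 1.62. Scaling to the poly-A controls shifted the all-gene median from 0.11 to 0.94, and Id4 had a log2 ratio of -0.32 and was not called. Id3 was called in 2 of 9 settings, quantile normalization and poly-A scaling, Id2 in 3 of 8, Id1 in 8 of 8, Id4 in 8 of 9 and Atoh8 in 9 of 9. These counts include the reported setting. Id1, Id3 and Atoh8 had 1 probe set each, above every floor in both arrays. For these genes the floors and the choices of probe sets could not change the ratio as scaled, and only the scalings could. Without probe sets of shared transcripts no value could be had for Id1 and Id2.

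**Figure D3:**
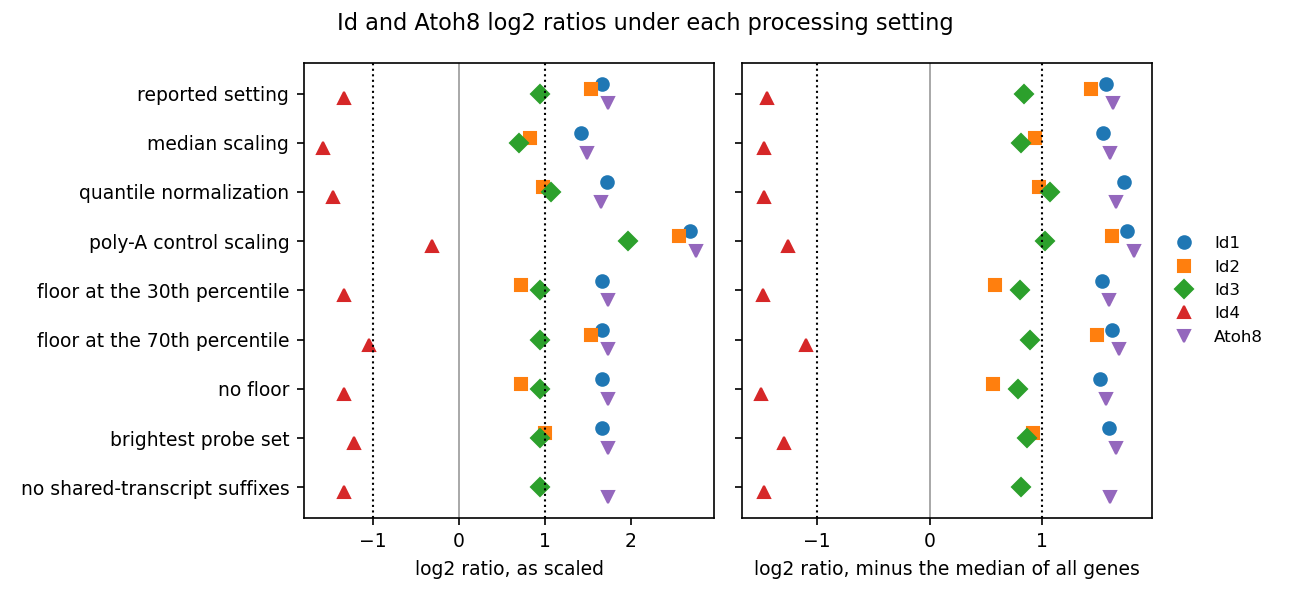
Log2 ratios of Id1, Id2, Id3, Id4 and Atoh8 (horizontal axes) under the 9 processing settings (rows), as scaled on the left and after subtracting the median of all measured genes in that setting on the right, with dotted lines at 2-fold. Id1 and Atoh8 stay beyond the right dotted line in both panels, Id3 lies near it on the right panel and reaches 1.96 under poly-A scaling on the left one, Id2 moves across it, and Id4 stays left of 0 in every row.

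The promoters of these genes are shown because Id1, Id2, Id3 and Atoh8 lay on the same side and Id4 on the other. RefSeq windows of assembly GRCm38.p6 were given for Id2, Id3, Id4 and Atoh8. The bases before the transcription start are printed 5′ to 3′ on the strand of the gene, leaving out any that lie inside the annotated gene. Capitals mark the GC-rich Smad element GGCGCC, the Smad-binding core CAGAC and the E-box CANNTG, which E proteins and other bHLH factors recognise. Each motif was searched on both strands. The stretch of Id2 is chr12:25096093-25096342 on the minus strand, that of Id3 chr4:136143572-136143821 on the plus strand, that of Id4 chr13:48260866-48261115 on the plus strand and that of Atoh8 chr6:72235781-72235827 on the minus strand.
Id2: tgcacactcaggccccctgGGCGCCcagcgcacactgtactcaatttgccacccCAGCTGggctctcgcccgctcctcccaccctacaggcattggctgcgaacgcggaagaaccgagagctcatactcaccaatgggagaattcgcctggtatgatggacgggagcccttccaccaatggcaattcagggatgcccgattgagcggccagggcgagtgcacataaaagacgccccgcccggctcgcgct
Id3: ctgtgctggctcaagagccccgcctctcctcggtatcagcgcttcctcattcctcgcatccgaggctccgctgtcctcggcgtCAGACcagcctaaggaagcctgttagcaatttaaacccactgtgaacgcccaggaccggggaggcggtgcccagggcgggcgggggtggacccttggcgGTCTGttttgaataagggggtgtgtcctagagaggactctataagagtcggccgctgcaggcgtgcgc
Id4: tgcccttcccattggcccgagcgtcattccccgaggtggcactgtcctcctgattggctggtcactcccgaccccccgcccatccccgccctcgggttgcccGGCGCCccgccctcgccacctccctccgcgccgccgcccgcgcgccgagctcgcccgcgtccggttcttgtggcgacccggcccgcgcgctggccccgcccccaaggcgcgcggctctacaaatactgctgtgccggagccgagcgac
Atoh8: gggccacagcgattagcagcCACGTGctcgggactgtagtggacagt

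No motif searched was found in the windows of Id2, Id3 and Atoh8 alike. GGCGCC was found once in Id2, beginning 231 bases before the start, and once in Id4, at 148 bases, and it was in 9.59% of all 32851 promoter windows of the same length. CAGAC was found in Id3 at 167 and, on the other strand, at 68 bases before the start, and 42.2% of windows hold it. Of the 4 windows, that of Id4 held neither CAGAC nor an E-box, but Id2 and Atoh8 also lacked CAGAC and Id3 an E-box. An E-box was found in Id2 at 196 bases and in Atoh8 at 230 bases and, within the annotated gene, at 59 bases, and 66.2% of windows hold at least 1. Of the 250 bases of the Atoh8 window, 203 lay inside the annotated gene and only 47 outside it. Distances in Atoh8 are counted from the end of that window, and motifs absent from it were searched mostly inside the gene. The CCAAT motif was found 3 times in Id2 and 2 times in Id4, and 33.8% of windows hold it. Neither the CRE motif TGACGTCA (1.55% of windows) nor the Egr1 motif GCGTGGGCG (0.536%) was found in the windows of these 4 genes. The share of G and C was 75.6% in the window of Id4 and between 62.8% and 63.2% in those of Id2, Id3 and Atoh8. In the printed stretch of Atoh8 alone it was 61.7%. The motifs are letters in these windows, and binding was not measured.

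The E proteins, the main partners that Id proteins bind, had mean log2 ratios above 0, but none was called. Tcf3, which encodes E12 and E47, gave 309 for wild-type and 553 for Slc39a13-KO (log2 ratio 0.84, SD 0.09 between 2 probe sets). Tcf4 (E2-2) had a log2 ratio of 0.42 (SD 0.23 between 6) and Tcf12 (HEB) one of 0.25 (SD 0.59 between 4), and the Tcf12 probe sets had different signs. The median of the 3 genes was 0.42, beside 0.11 for all measured genes.

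Of the class II bHLH factors of mesenchyme and muscle, which bind DNA as pairs with E proteins, 10 of 20 were measured, and 1 was called. This was Twist2, known to restrain osteoblast maturation, which had 536 and 173 and was 3.09-fold lower in Slc39a13-KO. Its relative Twist1, mutated in syndromes with early fusion of skull sutures, had 2018 and 1080, a log2 ratio of -0.90, and was not called. The muscle factors Myod1, Myf5, Myf6 and Myog lay below the floor in both arrays. Of the proneural and atonal-related factors 2 of 17 with a named probe set were measured and 0 were called. Atoh1 and Atoh7, the relatives of Atoh8 in the atonal family, lay below the floor in both arrays.

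Among the Hes, Hey and Bhlhe repressors, bHLH proteins of which several are targets of Notch, 3 of 6 measured genes were lower and 0 higher. Hes1 had 724 and 352 (2.06-fold lower) and Hey1, which BMP also induces in osteoblasts, 422 and 153 (2.75-fold lower). Hey2, at 221 in wild-type, dropped under the floor in the Slc39a13-KO array and was at least 2.60-fold lower. Bhlhe40 was not called (716 and 630.0). The list's median was -0.79. Under poly-A scaling it turned to 0.23, still under the 0.94 of all genes, and 0 of these repressors were called lower. Hey1 and Id4 were thus lower in the array in which Id1, Id2 and Atoh8 were higher.

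**Figure D4:**
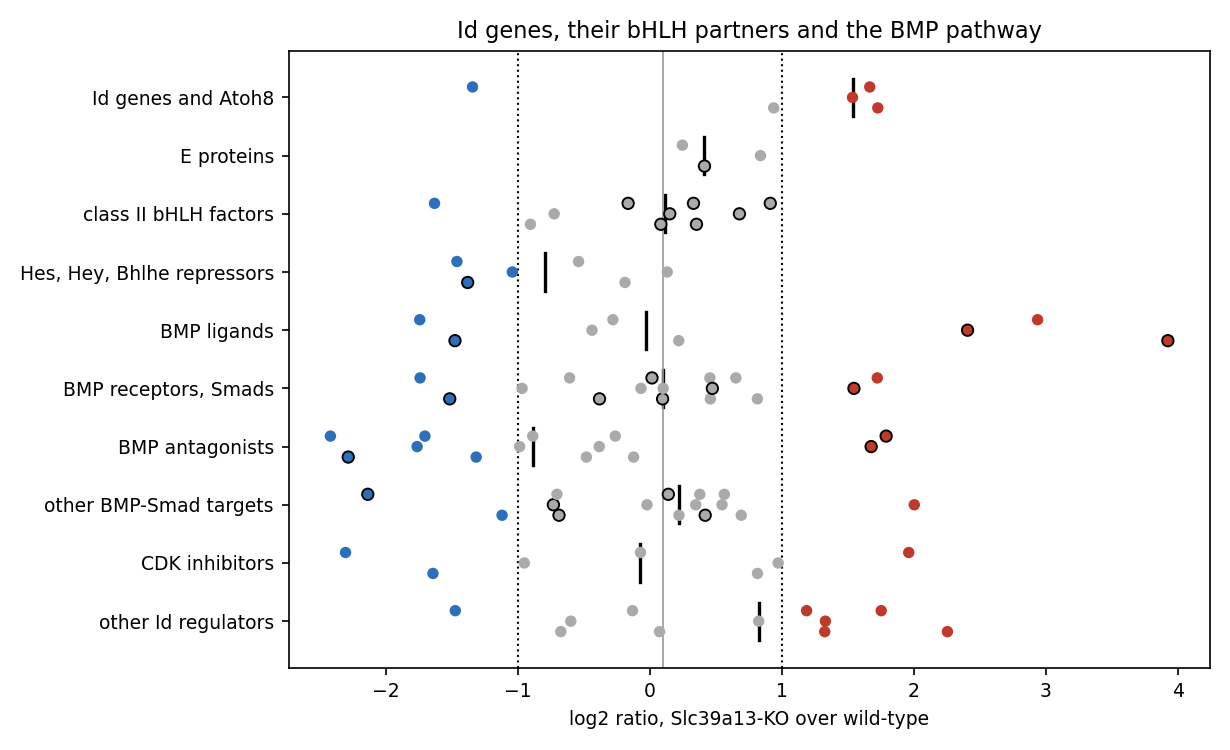
Log2 ratio of measured genes, Slc39a13-KO relative to wild-type (horizontal), each point 1 gene, red if called higher, blue if called lower and grey if not called. Points are outlined in black if at least 1 probe set of the gene was at the floor in 1 of the arrays. A black bar marks the median of each row, a grey line the median of all genes and dotted lines 2-fold. In the top row Id4 lies alone on the left; below it, the BMP antagonists hold 5 blue and 2 red points, the Hes and Hey repressors 3 blue ones, BMP ligands lie on both sides and the lowest row, which holds Egr1 and Fos, has 5 red points.

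The BMP ligands differed in both directions, with 3 of 8 measured genes higher and 2 lower. Bmp4, a main ligand of calvarial cells, was 3.34-fold lower, at 3797 and 1136. Bmp6 was at least 2.78-fold lower. Bmp2 lay below the floor in wild-type and had 452 in Slc39a13-KO, at least 5.31-fold higher, Bmp5 was at least 15.2-fold higher, and Gdf10, a divergent family member, had 1123 and 8615. The median of the list was -0.03.

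Receptors and Smads that carry the signal to the Id genes were mostly not called. The log2 ratio of Smad1 was -0.06 (SD 0.56 over 3 probe sets), that of Smad5 0.46 (SD 0.31 between 3) and that of Smad4 0.10 (SD 0.27 between 3). Of 16 measured genes 2 were higher and 2 lower. The BMP co-receptor Rgma was 3.31-fold higher and the proteoglycan co-receptor Tgfbr3 at least 2.93-fold higher. The type II receptor Acvr2a was 3.34-fold lower and the type I receptor Acvrl1 (ALK1), known from endothelium, at least 2.85-fold lower. The median was 0.10, next to 0.11 for all genes.

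Antagonists, which keep BMPs from their receptors outside the cell, were called lower for 5 of 13 measured genes and higher for 2, and the other 6 were not called. Grem1 (gremlin) had 3417 and 640 (5.34-fold lower), Sostdc1 was at least 4.86-fold lower, and the secreted protease Htra1, which also binds TGF-β family ligands, had 5647 and 1667 (3.39-fold lower). Twsg1, which can act for or against BMPs, was at least 3.46-fold higher (SD of the log2 ratio 0.96 between 4 probe sets) and Chrdl1 (chordin-like) at least 3.20-fold higher. The list's median was -0.88. Under poly-A scaling it turned to 0.24, under the 0.94 of all genes, and 2 antagonists were called lower.

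Of 15 other genes listed as targets of BMP and Smads, all measured, 1 was higher and 2 lower. This is 20% called, beside 13.9% of all genes, and the median was 0.22 beside 0.11 for all genes. Bambi, a decoy receptor, was higher with 372 and 1496 (4.02-fold), the direction of Id1 and Atoh8. Smad6, the inhibitory Smad of the BMP branch, had 2014 and 2984, a log2 ratio of 0.57 below the threshold. Smad7, which also answers to TGF-β, was 2.17-fold lower, but its probe sets had log2 ratios of -0.68 and -1.56. Msx2, at 373 in wild-type, was under the floor in the other array and at least 4.39-fold lower. Over the 52 measured genes of the 4 BMP lists, 8 were called higher and 11 lower, 36.5% in either direction beside 13.9% of all genes. The lists, like the Id genes and Atoh8, were chosen with earlier results of these data known, so these shares are a description and not an unbiased contrast.

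Of 11 other genes listed as possible regulators of Id expression, all measured, 5 were called higher and 1 lower (median 0.83). Over all genes 13.9% were called in either direction. Egr1, a serum-induced zinc finger factor that can act on the Id1 and Id3 genes, had 3488 and 11775 (3.38-fold higher in Slc39a13-KO). Fos was 4.78-fold higher, Ier2 2.52-fold, Zfp36 2.51-fold and Junb 2.28-fold. Klf4 had 3728 and 1345 and was 2.77-fold lower. The rest were not called, among them, named after their values were seen, Atf3 (log2 ratio 0.83), Myc (-0.13) and Ifrd1 (-0.67). Several of these genes respond to serum and to handling of cultures within a short time, and their part in the Id values was not tested.

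The inhibitors of cyclin-dependent kinases, some of which E proteins activate and Id proteins keep low, were called lower for 2 of 7 genes, all measured, and higher for 1. Cdkn1a (p21) had 8150.5 and 2614, and its 2 probe sets had log2 ratios of -1.63 and -1.66. Cdkn2b (p15), also a target of TGF-β, had 7628 and 1546, 4.93-fold lower, and Cdkn2c (p18) had 575 and 2245, 3.90-fold higher. The median was -0.07.

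Markers of other cells differed between the same arrays, and in bulk RNA more cells of a type and more RNA per cell cannot be told apart. Of 18 measured chondrocyte markers 17 were higher and 0 lower, and 13 had at least 1 probe set at the floor in wild-type. The summed signal of their probe sets was 11774 for wild-type against 210380.0 for Slc39a13-KO. Cnmd, Col9a1 and Acan were at least 623-fold, 106-fold and 52.4-fold higher. BMP also drives Id genes in chondrocytes, and the part of cartilage-like RNA in the Id and Atoh8 values was not tested. Of 13 smooth muscle and pericyte markers 8 were lower and 1 higher, and the summed signal was 99938 and 43339. Actg2 was 41.7-fold lower, Mcam at least 10.5-fold and Lmod1 3.86-fold lower, and Smtn was 3.56-fold higher. Of 15 macrophage and osteoclast markers 7 were higher and 1 lower (summed signal 6557 and 9771), and 10 had at least 1 probe set at the floor in wild-type. Lyz2 had 255 and 2146 (8.41-fold higher), Ctss was at least 3.71-fold and C1qb at least 3.70-fold higher, and Cd53 was 3.50-fold lower, while Ptprc, Aif1 and Cx3cr1, named after their values were seen, lay below the floor in both arrays. Among endothelial markers, cells in which Id1, Id3, Atoh8, Hey1 and Acvrl1 are well expressed, 5 of 12 were measured, 1 higher and 2 lower (summed signal 3656 and 1937). Ptprb had 1046 in wild-type and was at least 12.3-fold lower, Flt1 was at least 2.54-fold lower, and Erg was at least 3.78-fold higher (SD of the log2 ratio 1.58 over 2 probe sets). The other 7, among them Pecam1, Kdr and Tie1, chosen in the same way as Ptprc, lay below the floor in both arrays. The part of these cell types in the Id and Atoh8 values was not tested.

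The cells were labelled as osteoblasts, and the markers of this type were mixed. Of 7 measured, 3 were higher and 0 lower, beside 13.9% of all genes called in either direction. Col1a2 had signals of 28503 and 25943, and Sparc (osteonectin) had 40038 and 49640.1, both named after their values were seen. Named in the same way, Col1a1 had 12230 and 7655, with probe sets at log2 ratios of -1.40 and 0.05. Sp7, also named so, had 94.8 and 153, near the floor. The enzyme Alpl and the osteocyte protein Dmp1 were at the floor in wild-type and at least 2.32-fold and 4.50-fold higher in Slc39a13-KO, and Pth1r was 5.20-fold higher. Ibsp and Phex, markers of mature osteoblasts named after their values were seen, lay below the floor in both arrays. Bglap, Runx2 and Spp1 had no probe set naming them alone and were not analysed here.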

How the data were processed

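Total RNA of wild-type and Slc39a13-KO primary osteoblasts was labelled with biotin by the authors and hybridised to Affymetrix mouse expression arrays, 1 per genotype. The deposited values are linear signal intensities per probe set, made with MAS5 per the submitters' processing notes (version: not given in the sources used here), while the methods name gcRMA for the study's own analysis. MAS5 scales each array to a common trimmed mean, so the scaling removes any overall change in mRNA content. Here, of 45101 probe sets, 64 controls, 932 with several gene symbols and 9160 with none were left out. Of 34945 with 1 symbol, 34741 were matched to RefSeq (GRCm38.p6), used for names and promoter windows. Arrays were rescaled to the same 2% trimmed mean, signals below the 50th percentile of pooled values (85.1) were raised to it, and the log2 ratio (Slc39a13-KO minus wild-type) of a gene is the mean over probe sets above this floor in at least 1 array. Where at least 1 probe set of a gene lay at the floor in 1 of the arrays, the fold is a bound ("at least"). No test between genotypes was possible with 1 array each, and the number of arrays limits the precision. The threshold was 2-fold. The genes and lists were chosen with earlier results of these data known. Named are the 5 genes and Slc39a13, all called genes of a list or, above 6, the 3 largest in each direction, and E proteins, Smads, Msx2, Bmp2, Bmp4, Twist1, Hey1 and Bhlhe40. No likeness of pattern can be ranked over 2 arrays. The calling step was run on simulated data made from the wild-type array, with noise the size of the median SD between probe sets. Changes were set well above 2-fold, in genes well above the floor. Such data hold no variation between cultures or arrays and no changes near 2-fold. They check that the rule was carried out and cannot show how sure the calls are. Alternatives were 3 scalings, 3 floors and 2 choices of probe sets. Python 3.11.15, numpy 2.4.6, pandas 2.3.3 and matplotlib 3.10.9 were used.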

Additional observations from a re-analysis of the deposited data

How the results depend on the processing

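No paired analysis was possible because each genotype had 1 array, and no array could be left out. Depth is not defined for these arrays. No gene has a measured error between cultures or arrays, signals near the floor included. Genes with 1 probe set also lack a spread between probe sets. Median scaling gave an Id4 log2 ratio of -1.58 and 654 genes called higher. Poly-A scaling, which moved the median of all genes to 0.94, gave log2 ratios of 2.69 for Id1, 2.56 for Id2, 1.96 for Id3, -0.32 for Id4 and 2.75 for Atoh8, so 0 of the 5 genes were called lower. It called 5895 genes higher and 225 lower, 6 bHLH genes higher and 0 lower (0 and 4 as reported), and 19 BMP pathway genes higher and 3 lower (8 and 11 as reported). The floor at the 30th percentile gave 0.72 for Id2, 1596 genes called higher, and 3 bHLH genes higher and 7 lower. The floor at the 70th percentile gave -1.04 for Id4, 506 genes higher and 438 lower, 1 bHLH gene lower, and 5 BMP pathway genes higher and 7 lower. No floor gave 0.72 for Id2, 3077 genes higher and 2049 lower, 14 bHLH genes higher and 11 lower, and 14 BMP pathway genes higher. Quantile normalization called 774 genes higher and 854 lower, so 47.5% of calls were higher in place of 57.5%, and with median scaling 38.3%. With the brightest probe set Id2 had a log2 ratio of 1.00, just under the threshold, and lost its call, so 2 of the 5 genes were called higher in place of 3. Probe sets without shared-transcript suffixes gave no value for Id1 and Id2, and the floor at the 70th percentile no median for the proneural list. The cause of these moves was not tested.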
